A study of Rattus norvegicus with 18 samples.

Results

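Transcription in the retinal pigment epithelium and choroid (RPE/choroid) of 8-AG-treated aged rats was compared with that of untreated aged rats, by RNA-seq of 6 of the 18 libraries of the study. All animals were female Fischer344 rats, an albino strain, and no transgene or other genetic change is given for any group. The 8-AG group (3 libraries) drank water with 8-aminoguanine (8-AG), dosed at 5 mg/kg/day over 8 weeks from 22 months of age, and was sampled at 24 months. The aged group (3 libraries) was sampled at 24 months without treatment. For reference, 3 RPE/choroid libraries of untreated rats, 4 months old by the labels, are given as the young group, and the same comparison of 8-AG with aged rats in the neural retina (3 libraries against 3) is set beside some genes. The members are all 32552 genes of the RPE/choroid count table, of which 16680 carry a symbol in the deposited tables. Of these genes, 16257 passed the filter on low counts and were tested, and the other 16295 were not.

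The RPE is the pigmented epithelium behind the photoreceptors. It recycles the visual chromophore, engulfs shed photoreceptor outer segments and, through its tight junctions, forms the outer blood-retinal barrier against the choroid, the vascular and pigmented layer that supplies the outer retina. 8-AG is an endogenous inhibitor of purine nucleoside phosphorylase (PNPase, gene Pnp), the enzyme that cleaves inosine and guanosine to hypoxanthine and guanine in purine salvage and breakdown. The tissue was dissolved from the eyecup after the retina had been lifted off, so the libraries can hold RNA of the RPE, the choroid and whatever adjoining tissue stayed in the cup.

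RPE/choroid libraries held 28606365 to 46333033 counts in the 6 libraries compared. The labels number 2 of the aged libraries (libraries 1 and 2) alike, with the letters L and R, and do not say whether they are both eyes of 1 rat. Young libraries 1 and 2 share a number in the same way, so the SEs of aged against young may rest on fewer animals than libraries on both sides. Nothing in the labels says how many animals stand behind a library, so P values measure the spread between these libraries, which may in part be technical. 8-AG library 1 stood apart from the rest, with rank correlations across genes of 0.742 to 0.879 with the other 5 libraries, against 0.906 to 0.979 among those 5. For many of the values below that rest on it, the value without it is also given. Levels are counts scaled to library size after TMM normalisation (CPM).

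Markers of the expected cells were present, but in unequal amounts. Rpe65, the isomerase of the visual cycle, had 611.7, 167 and 108 CPM in 8-AG libraries 1, 2 and 3, 121, 26.7 and 334 CPM in aged libraries 1, 2 and 3, and 321, 243.8 and 57.0 CPM in the young libraries. Best1, the bestrophin chloride channel of the RPE, was steadier at 434, 786 and 838 CPM with 8-AG and 568, 993 and 641 CPM in aged tissue. Neither gene passed the test, with log2 fold changes of 0.92 (SE 1.06) and −0.09 (SE 0.40). The entry of Otx2, an RPE transcription factor, was near 0 throughout, at 0 to 0.995 CPM in the 6 libraries, also in those rich in Rpe65. Whether these counts reflect its level in the tissue was not tested. Summed over 23 RPE and visual cycle genes, the level was 4562 to 6993 CPM in the 8-AG group and 3372 to 6280 CPM in the aged group, and the groups overlapped.

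8-AG library 1 was low in choroid and high in tissues from outside it. The 15 endothelial markers summed to 791 CPM in 8-AG library 1 and to 4539 to 8707 CPM in the other 5 libraries, and Plvap, a diaphragm protein of fenestrated capillaries, had 120 CPM against 1549 to 3262 CPM. The 11 melanosome and pigment genes summed to 1181 CPM against 6916 to 18640 CPM. Rod photoreceptor genes summed to 58653 CPM in this library, 732 to 17608 CPM in the other 5 and 2139 to 20826 CPM in young tissue. Striated muscle genes, which mark the eye muscles, summed to 80672, 3851 and 677 CPM in 8-AG libraries 1, 2 and 3 and to 5571, 423 and 227 CPM in aged libraries 1, 2 and 3. Surface epithelium and keratinocyte genes, typical of cornea, conjunctiva and lid, summed to 3240, 452 and 1069 CPM with 8-AG and to 439, 324 and 822 CPM in aged tissue. In bulk tissue, fewer cells of a type and less RNA per cell cannot be told apart.

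**Figure D1:**
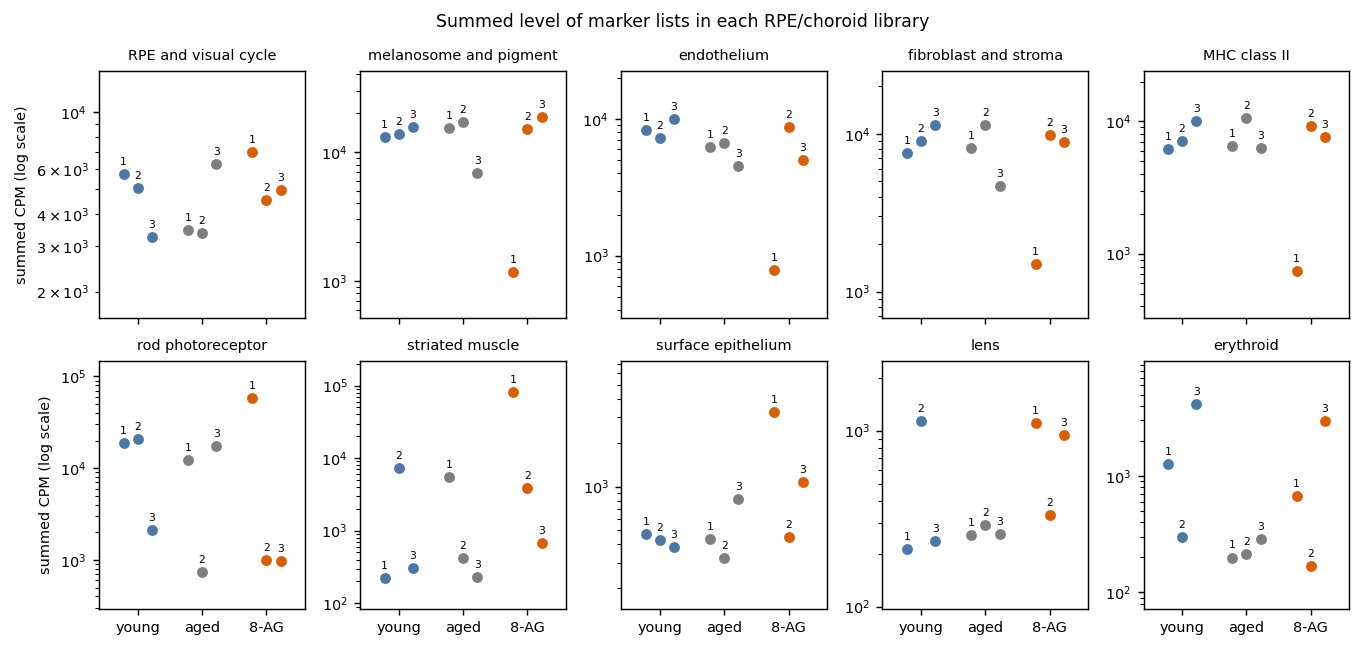
Summed levels of 10 marker lists (CPM, log axis) in each RPE/choroid library, with points numbered by library and coloured by group (8-AG, aged, young). 8-AG library 1 is lowest for endothelium and melanosome genes and highest for rod, muscle and surface epithelium genes.

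Between the groups, 201 genes were higher with 8-AG (1.24% of those tested) and 68 were lower (0.418%), with a differentially expressed gene (DEG) taken as a fold change over 1.5 at an unadjusted P under 0.05. No gene passed an adjusted p of 0.05 in edgeR's quasi-likelihood test with Benjamini-Hochberg adjustment over all genes tested, where every adjusted p was 1.0, so none is repeated below, while 274 genes (1.69%) had an unadjusted P under 0.05 and DESeq2 called 81 genes. The words higher and lower below refer to the unadjusted rule for DEGs and to nothing stricter, and SE is the standard error of the log2 fold change. Every 8-AG library lay above every aged library for 342 genes (2.10%), and below for 302 (1.86%), and 143 of the 269 DEGs were among these. The median log2 fold change over all genes was 0.01, with quartiles of −0.18 and 0.25 and a median SE of 0.44. The common dispersion was 0.396 here and 0.0180 for the same comparison in the retina.

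The libraries of a group contributed unequally to the DEGs. Of the 201 higher DEGs, 8-AG library 1 had the highest 8-AG value in 140, library 3 in 54 and library 2 in 7, against 41.9%, 25.5% and 32.5% of all genes tested. Of the 68 lower DEGs, aged library 3 had the lowest aged value in 57, against 34.0% of all genes tested, and the highest was in aged library 2 for 43 and in aged library 1 for 23. Young library 1, which took no part in the fit, was the highest of the young libraries for 56 of the 68 lower DEGs (82.4%), against 36.0% of all genes tested and 31.8% of the higher DEGs. The lower DEGs split the libraries within the untreated groups as well as between aged and 8-AG tissue.

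**Figure D2:**
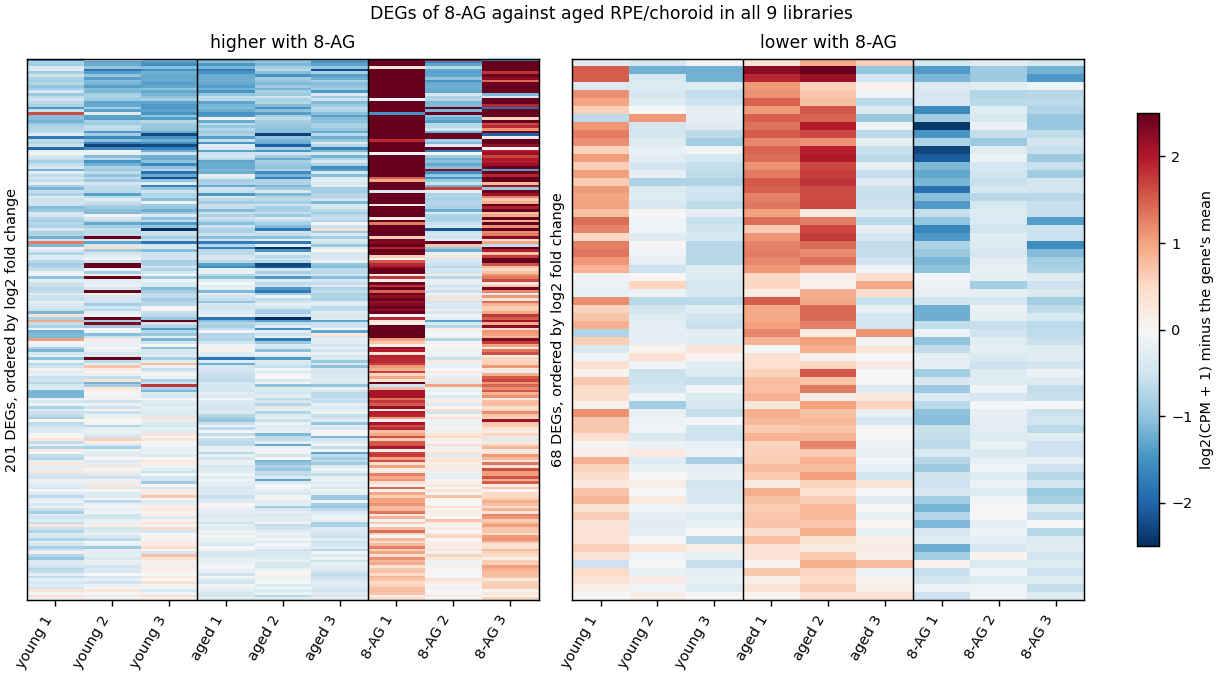
Heat map of the 201 higher and 68 lower DEGs (rows) in the 9 RPE/choroid libraries (columns), as log2(CPM + 1) minus the gene's mean over the libraries. Many higher DEGs stand out in 8-AG library 1 or 3, and most lower DEGs stand out in aged libraries 1 and 2 and in young library 1.

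Among the higher DEGs, 81 had a mean log2 CPM of at least 1, a gene name and no overlap between groups, and the 15 with the smallest P had log2 fold changes of 0.67 to 6.28 and P of 0.0014 to 0.015. The smallest P belonged to Lmo7 (ENSRNOG00000060775), which encodes a LIM and calponin homology domain protein of cell junctions. Lmo7 had 54.4, 65.5 and 61.3 CPM with 8-AG and 31.9, 33.8 and 33.5 CPM in aged tissue, a log2 fold change of 0.89 (SE 0.16). Both groups were tight, and the smallest 8-AG value was well above the largest aged value. Without 8-AG library 1 the log2 fold change of Lmo7 was 0.94. Young tissue spanned 26.2 to 73.2 CPM.

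Pik3ap1 (ENSRNOG00000013309), an adaptor that links receptors of immune cells to phosphoinositide 3-kinase, had 40.0, 27.4 and 37.4 CPM with 8-AG and 18.0, 16.7 and 18.4 CPM in aged tissue, a log2 fold change of 1.01 (SE 0.22). Acss1 (ENSRNOG00000007102), the mitochondrial acetyl-CoA synthetase, had 69.9, 42.5 and 73.3 CPM against 34.2, 30.4 and 24.9 CPM, a log2 fold change of 1.08 (SE 0.28). Cyp26a1 (ENSRNOG00000016750), a cytochrome P450 that degrades retinoic acid, had 19.3, 21.8 and 18.0 CPM against 7.97, 12.3 and 6.28 CPM, a log2 fold change of 1.17 (SE 0.32). 8-AG library 1 was the highest of its group for Pik3ap1 alone among these 3 genes, and without it their log2 fold changes were 0.87, 0.96 and 1.17.

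Ablim3 (ENSRNOG00000019365), an actin-binding LIM protein, had 30.7, 33.1 and 27.0 CPM with 8-AG, 20.6, 17.0 and 20.4 CPM in aged tissue and 36.7, 32.0 and 36.8 CPM in young tissue. The log2 fold change was 0.67 (SE 0.19) for 8-AG against aged, and −0.87 (SE 0.14) for aged against young, in fits that share the aged libraries. All 3 aged values were thus below all values of the other groups, while 8-AG and young values overlapped. Pgm5 (ENSRNOG00000015406), a phosphoglucomutase relative found at muscle and epithelial adhesions, had 31.8, 26.7 and 61.3 CPM with 8-AG, 20.9, 11.5 and 12.2 CPM in aged tissue and 19.9 to 29.4 CPM in young tissue. Serpine3 (ENSRNOG00000009814), a serpin, had 28.5, 34.2 and 10.8 CPM against 0.774, 0.766 and 3.38 CPM, a log2 fold change of 3.93 (SE 0.85). Young library 1, at 13.6 CPM, lay in the 8-AG range of Serpine3 and the other young libraries, at 1.43 and 0.774 CPM, in the aged range.

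The remaining 8 of these 15 were lens, muscle and epithelial genes (Cryba1, Cryba4, Crygs, Lgsn, Tnnc1, Pkp3) and Ttc22 and Tmem45b, and several were led by 1 library. Tnnc1 (ENSRNOG00000018943), the calcium-binding troponin of slow and cardiac muscle, had 313, 36.9 and 5.87 CPM with 8-AG and 1.36, 2.06 and 1.65 CPM in aged tissue, a log2 fold change of 6.18 (SE 1.603). Tnnc1 was led by 8-AG library 1, and without it the log2 fold change was 3.66. Ttc22 had 31.9, 0.361 and 7.12 CPM against 0.129, 0.118 and 0.270 CPM. Of the 15 genes, 10 kept P under 0.05 in all 6 fits that leave out 1 library, and 15 kept it without 8-AG library 1.

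**Figure D3:**
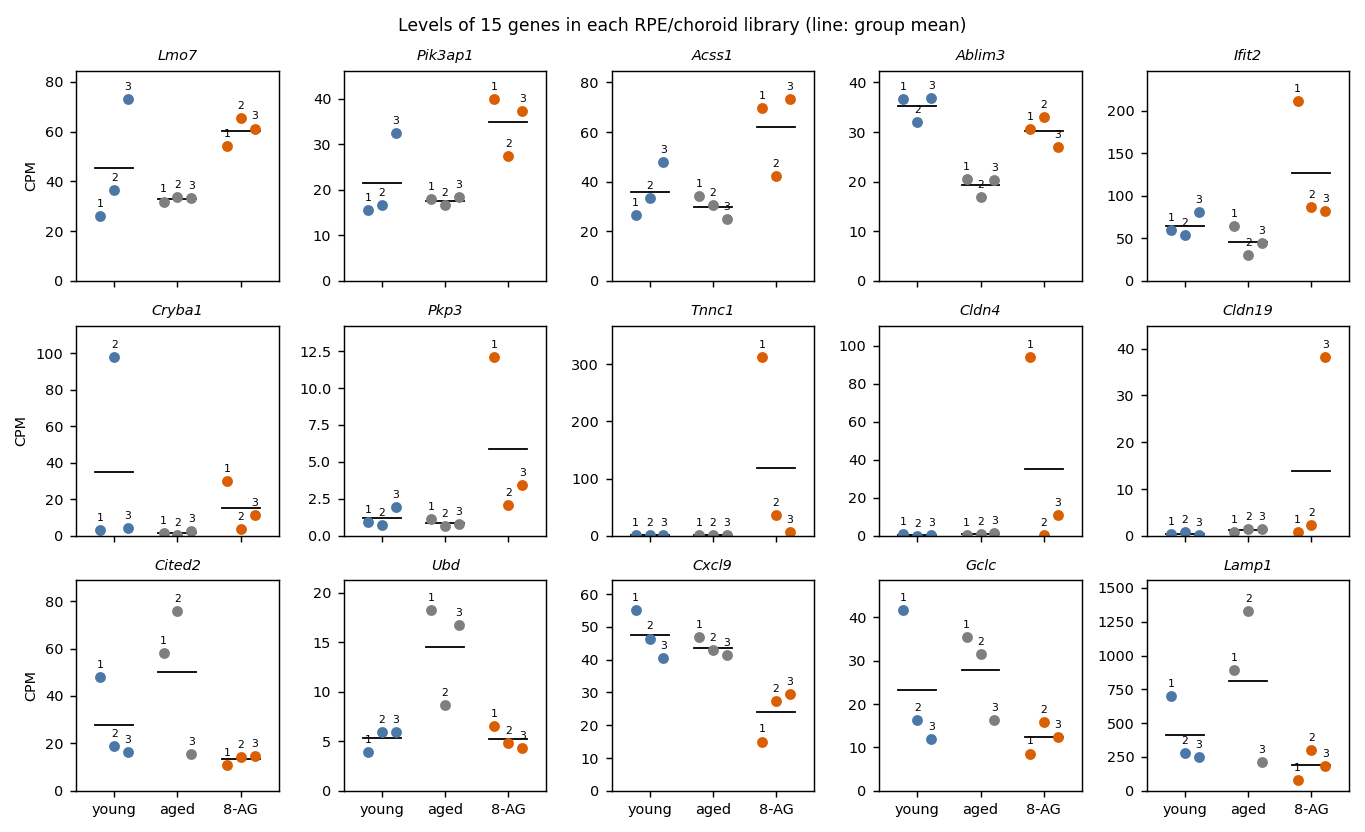
Levels (CPM, linear axes from 0) of 15 genes in each library of the 8-AG, aged and young groups. Points are numbered by library and lines mark group means. Lmo7, Pik3ap1 and Ablim3 show 8-AG and aged groups that do not overlap, with young values of Lmo7 and Pik3ap1 more spread. Tnnc1, Cldn4 and Cldn19 show single high 8-AG libraries.

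Fewer genes were lower with 8-AG. Of the 68 lower DEGs, 32 met the same conditions, and the 15 with the smallest P had log2 fold changes of −3.98 to −0.86 and P of 0.0072 to 0.026. Ubd (ENSRNOG00000000768) encodes FAT10, a ubiquitin-like modifier induced by inflammatory cytokines. It had 6.53, 4.86 and 4.32 CPM with 8-AG, 18.3, 8.66 and 16.7 CPM in aged tissue, and 3.94, 5.96 and 5.96 CPM in young tissue. The log2 fold change was −1.44 (SE 0.39) for 8-AG against aged and 1.45 (SE 0.35) for aged against young, again with the aged libraries in both. All 3 aged values were above every 8-AG and young value. Cxcl9 (ENSRNOG00000022242), a chemokine that draws T cells, had 15.03, 27.3 and 29.4 CPM with 8-AG and 46.9, 42.9 and 41.4 CPM in aged tissue, a log2 fold change of −0.86 (SE 0.28). Young tissue, at 40.5 to 55.3 CPM, lay with the aged libraries.

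Cited4 and Cited2, transcriptional co-regulators that bind CBP/p300, were both lower. Cited4 (ENSRNOG00000046607) had 0.591, 0.861 and 0.306 CPM with 8-AG and 12.1, 14.6 and 1.52 CPM in aged tissue, a log2 fold change of −3.98 (SE 0.98). Cited2 (ENSRNOG00000056940) had 10.9, 14.4 and 14.5 CPM against 58.3, 76.0 and 15.6 CPM, a log2 fold change of −1.90 (SE 0.59). In both genes aged library 3 was close to the 8-AG libraries, and young library 1, at 9.01 and 48.1 CPM, was far above the other young libraries. Ptov1, Grik5 (a kainate receptor subunit), Cenpv, Csnk1g3 (a casein kinase 1), Ppp2r2d (a phosphatase 2A subunit) and Tmem243 likewise had their lowest aged value in library 3 and their highest young value in library 1. Ptov1 for example had 21.3, 32.2 and 34.4 CPM with 8-AG, 142, 170 and 38.3 CPM in aged tissue and 75.1, 28.2 and 28.0 CPM in young tissue. Of the 15 lower genes, Cited4, Ubd, Grik5 and Ptov1 kept P under 0.05 in all 6 fits that leave out 1 library, and 14 kept it without 8-AG library 1.

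Type I interferon response genes were the immune list with the most DEGs. Interferons signal through transcription factors, among them STAT2 and IRF9, that bind interferon-stimulated response elements in the promoters of antiviral genes. Of 28 tested genes, 9 were higher with 8-AG and 0 were lower, 24 had a positive log2 fold change and the list's median was 0.42. Every 8-AG library lay above every aged library for 6 of them. The promoters of 3 of the 9 are shown as examples of promoters that hold this element, which not all members do. Bases run 5′ to 3′ on the gene's strand, from 250 bases before the start of the gene to 50 after it (RefSeq, GRCr8), and capitals mark 2 copies of GAAA with any 2 bases between them, searched on both strands.
Oas1a, chr12:41330216-41330515, plus strand: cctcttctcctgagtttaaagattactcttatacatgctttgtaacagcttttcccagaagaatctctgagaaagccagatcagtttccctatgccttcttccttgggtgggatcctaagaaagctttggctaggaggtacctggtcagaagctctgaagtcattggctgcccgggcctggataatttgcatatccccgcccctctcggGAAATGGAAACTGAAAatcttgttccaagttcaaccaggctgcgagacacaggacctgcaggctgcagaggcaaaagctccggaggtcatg
Ifit3, chr1:241527076-241527375, plus strand: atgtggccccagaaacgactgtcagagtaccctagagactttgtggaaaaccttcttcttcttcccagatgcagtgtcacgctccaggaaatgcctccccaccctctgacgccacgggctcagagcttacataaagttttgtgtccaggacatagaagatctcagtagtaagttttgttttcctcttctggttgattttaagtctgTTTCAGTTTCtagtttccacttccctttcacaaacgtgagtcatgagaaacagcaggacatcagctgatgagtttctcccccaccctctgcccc
Irf7, chr1:205799974-205800273, minus strand: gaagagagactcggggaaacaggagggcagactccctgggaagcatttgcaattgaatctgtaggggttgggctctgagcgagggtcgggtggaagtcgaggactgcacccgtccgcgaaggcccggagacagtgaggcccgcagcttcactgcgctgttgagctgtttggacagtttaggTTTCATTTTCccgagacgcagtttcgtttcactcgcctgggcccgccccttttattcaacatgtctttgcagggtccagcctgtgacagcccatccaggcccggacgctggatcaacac
In Oas1a the capitals are 2 overlapping matches, 41 and 35 bases before the start, and the single matches in Ifit3 and Irf7 lie 44 and 69 bases before it. Of the 28 genes, 19 had a promoter in the sequence table, matched by symbol, and 13 of these (68.4%) held the motif on either strand, against 1034 of 27457 promoters in the table (3.77%). The motif was present in 5 of 6 higher DEGs with a promoter and in 8 of 13 members that were not DEGs.

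The oligoadenylate synthetase family, whose active enzymes make the activator of RNase L, included 3 of the 9 DEGs. Oas1a (ENSRNOG00000001369) had 47.9, 29.2 and 57.1 CPM with 8-AG and 26.8, 26.8 and 24.1 CPM in aged tissue, a log2 fold change of 0.81 (SE 0.28). Oasl had 90.4, 18.9 and 39.5 CPM against 17.9, 19.2 and 13.7 CPM (log2 fold change 1.59, SE 0.60), with 8-AG library 2 inside the aged range. Oas3 had 3.12 CPM in 8-AG library 3 and 13.8 CPM in 8-AG library 1, and library 2 just exceeded the aged values of 0.871, 0.972 and 0.675 CPM (2.86, SE 1.02). The log2 fold changes of Oasl and Oas3 were 0.79 and 1.29 without 8-AG library 1. In each of them 8-AG library 2 was the lowest of its group. Oas genes are near-identical copies in part, and how reads shared between them were counted is not given in the sources used here.

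Among the interferon-induced effectors, Ifit2 (ENSRNOG00000036604), which binds viral RNA, had 212, 87.1 and 82.5 CPM with 8-AG and 64.1, 30.3 and 44.1 CPM in aged tissue (log2 fold change 1.497, SE 0.50). Ifit3 had 138, 65.1 and 74.5 CPM against 56.6, 49.4 and 45.2 CPM (0.91, SE 0.34). Mx2 (ENSRNOG00000001963), a dynamin-like antiviral GTPase, had 74.6, 61.5 and 117 CPM against 55.8, 42.9 and 47.3 CPM (0.81, SE 0.28). The groups did not overlap in these 3 genes, and the log2 fold changes without 8-AG library 1 were 0.88, 0.47 and 0.88. Rsad2 (viperin) and Isg15, the ubiquitin-like modifier, were DEGs with log2 fold changes of 1.70 (SE 0.66) and 0.92 (SE 0.33), and their groups overlapped. That of Rsad2 was 1.01 without 8-AG library 1. Irf7 (ENSRNOG00000017414), the transcription factor that amplifies interferon production, had 244.1, 139 and 227 CPM against 134, 128 and 96.8 CPM (0.79, SE 0.30).

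Stat2 and Irf9, upstream factors of the response, were not DEGs and had log2 fold changes of 0.08 (SE 0.20) and −0.14 (SE 0.28). The number of DEGs in the list depended on the libraries. It was 2 without 8-AG library 1, 11 without 8-AG library 2, 3 without 8-AG library 3, 1 without aged library 1 and 0 without aged library 2 or 3, and 1 with aged libraries 1 and 2 summed, while across the fits without 1 library the median log2 fold change stayed at 0.21 to 0.57. The summed level of the list was 2381, 2571 and 3387 CPM with 8-AG and 2508, 2474 and 2026 CPM in aged tissue, and those groups overlapped. Macrophage markers, a cell type rich in these transcripts, summed to 477, 2005 and 1866 CPM with 8-AG and 1825, 2542 and 1307 CPM in aged tissue, with 14 of 15 listed genes measured, and 0 were DEGs. The part of macrophages in the interferon values was not tested. Surface epithelium genes, which summed to 3240, 452 and 1069 CPM with 8-AG, had the 8-AG library order of Oasl and Oas3. In the type I interferon response list, 0 genes were DEGs with the surface epithelium level as a covariate (median 0.47), 2 with the striated muscle level (median 0.41) and 10 with the rod level (median 0.36).

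In the retina of the same treatment groups the interferon list lay on the other side. Of 27 genes in both fits, 23 had positive log2 fold changes in RPE/choroid (median 0.37) and 26 had negative ones in retina (median −0.40). The median SE was 0.39 in RPE/choroid and 0.23 in retina. Mx2 had a log2 fold change of −0.81 (SE 0.37) in retina, Oas1a −0.87 (SE 0.36), Rsad2 −0.62 (SE 0.25) and Ifit2 −0.19 (SE 0.19). All 3 retina libraries of 8-AG rats were below all aged ones in 9 of the 27 genes, as they were in 4.15% of all genes tested in retina. The difference between the tissues was not tested, as the counts of each come from a separate table, and no adjusted p passed 0.05 for these genes in either tissue.

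**Figure D4:**
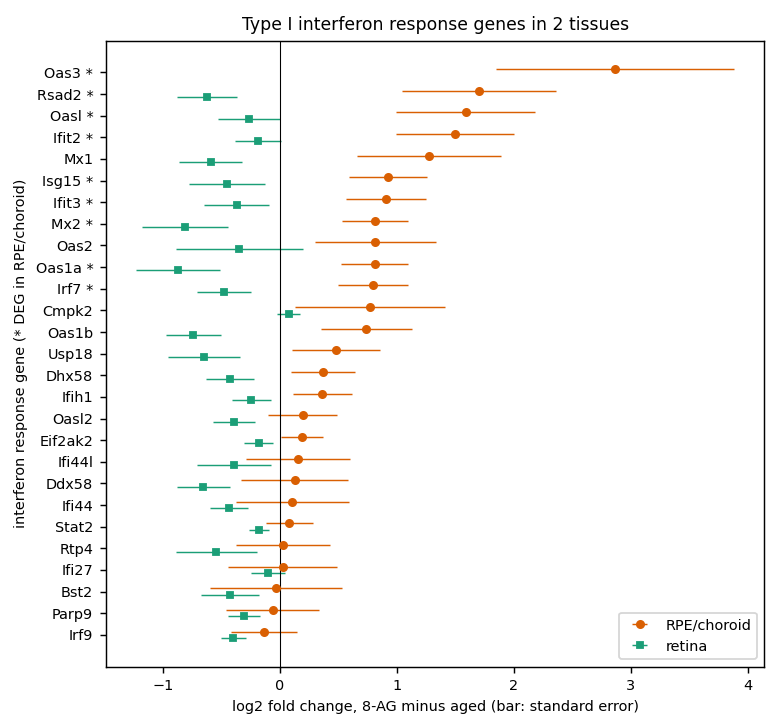
Log2 fold changes of 8-AG against aged tissue for 27 of the 28 genes of the type I interferon list, with bars of 1 SE, in RPE/choroid and in retina (26 genes). Asterisks mark DEGs in RPE/choroid. Most RPE/choroid values lie above 0, most retina values lie below it, and many bars cross it.

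Other immune lists held few DEGs. Chemokines had 0 higher and 2 lower DEGs of 25 tested, Cxcl9 (above) and Cxcl11, both ligands of CXCR3, and a median log2 fold change of −0.55. Cxcl11 had 1.80, 0.722 and 1.14 CPM with 8-AG and 3.42, 2.36 and 5.00 CPM in aged tissue (log2 fold change −1.52, SE 0.53), with no overlap. Without 8-AG library 1 the list still had these 2 lower DEGs among its calls, its median was −0.12 and 1 gene was higher. The list of chemokines had 1 lower DEG without 8-AG library 2 or 3 or aged library 2, and 0 without aged library 1 or 3. It had 6 lower with the rod level as a covariate and 1 with the striated muscle level. Of 9 mast cell genes, 9 had negative log2 fold changes (median −1.66) and 2 were lower DEGs, both mast cell proteases. The lower DEGs in this mast cell list numbered 4 without aged library 3 and 1 without 8-AG library 2 or 3 or aged library 1 or 2, and the median was −0.79 without aged library 2. Tpsab1, a tryptase, had 1.15, 1.97 and 1.03 CPM with 8-AG, and 9.66 and 1.01 CPM in aged libraries 2 and 3, with aged library 1 close to library 2, and Mcpt1 had 0, 4 and 2 counts against 22, 53 and 31. Aged library 3 was thus as low in Tpsab1 as the 8-AG libraries, whereas the Mcpt1 groups did not overlap. Lists for complement (25 tested), MHC class I (17) and MHC class II (11) held 0 DEGs in the main fit (edgeR on the 6 libraries, no covariate or block). So did those for Toll-like receptors and the inflammasome (19), macrophages (14), T and NK cells (12) and B cells (8). Complement and B cells had 1 lower DEG each without 8-AG library 2. With the rod level as a covariate, lower DEGs numbered 6 for macrophages, 5 for complement (and 1 higher) and 4 each for B cells and Toll-like receptors. They numbered 2 for MHC class II and 1 each for MHC class I and for T and NK cells. With the surface epithelium level, complement and Toll-like receptors had 1 higher DEG each.

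Tight junction strands are built from claudins and occludin. Of 13 tested members, 3 were higher DEGs and 0 were lower, and their median log2 fold change was 0.63. Ocln (occludin, ENSRNOG00000018297) had 29.7, 13.4 and 22.0 CPM with 8-AG and 10.6, 10.96 and 14.3 CPM in aged tissue (0.89, SE 0.36). Cldn2, a claudin of leaky epithelia, had 17.6, 4.56 and 43.4 CPM against 4.42, 1.68 and 6.95 CPM (2.35, SE 0.93). Cldn4 had 94.1, 0.528 and 11.2 CPM against 0.258, 0.766 and 1.35 CPM (5.52, SE 1.90), and 2.89 without 8-AG library 1. The groups overlapped in each of the 3 genes, since 8-AG library 2 lay in the aged range.

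Cldn19, the main claudin of the human RPE, was not a DEG and stood out in 1 library. It had 0.840, 2.36 and 38.2 CPM with 8-AG, 0.774, 1.36 and 1.52 CPM in aged tissue and 0.0836 to 0.863 CPM in young tissue (log2 fold change 3.503, SE 1.49). Cldn23 had 37.3, 0.389 and 13.9 CPM against 0.0884 to 4.22 CPM (3.33, SE 1.83). Cldn1, at 27.1 to 80.1 CPM with 8-AG and 38.3 to 120 CPM in aged tissue, had a log2 fold change of −0.80 (SE 0.61). Cldn3 and Cldn7 did not pass the filter. Cldn3 had 34.2, 0.222 and 1.75 CPM with 8-AG and 0 to 0.258 CPM in aged tissue. A list of claudins was taken from the study's text, which chose them on these samples, so its count is no independent evidence: 4 were tested and 2 (Cldn2, Cldn4) were DEGs. The claudin list had 1 DEG without 8-AG library 1, 6 higher and 1 lower without library 2 and 1 without library 3. It had 1 without aged library 1, 0 without aged library 2 or with aged libraries 1 and 2 summed, and 1 lower without aged library 3. Scaffold and polarity genes of tight junctions (19 tested) held 0 DEGs, and 2 higher ones without 8-AG library 1 and 3 without 8-AG library 2.

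Several junction genes of stratified epithelia were also higher. Of 20 adherens junction, desmosome and gap junction genes, 4 were higher DEGs, among them Dsc2, Evpl and Nectin4, at a list median of 0.03, and 7 were without 8-AG library 2, 1 without aged library 1 or 2 and 2 without aged library 3. Evpl, the envoplakin of the cornified envelope, had 112, 0.278 and 24.4 CPM with 8-AG and 0.147 to 0.355 CPM in aged tissue (7.50, SE 2.10), and 5.57 without 8-AG library 1. Of 30 surface epithelium genes, 13 were higher and 0 lower, at a list median of 2.42. Without 8-AG library 1 there were 8 higher DEGs and the median was 0.93, and the count was 23 without 8-AG library 2, 2 without aged library 1 or 2 and 3 without aged library 3 or with aged libraries 1 and 2 summed. Krt5, the basal keratin, had 206, 0 and 18.4 CPM with 8-AG and 0.0675 to 0.501 CPM in aged tissue. Krt12, the cornea keratin, had 1.898, 0.444 and 125 CPM against 0.0645 to 0.324 CPM. Krt5 was thus highest in 8-AG library 1 and Krt12 in 8-AG library 3, and 8-AG library 2 was near the aged level in both. Cldn4 followed the library order of Krt5, and Cldn19, like Krt12, was highest in 8-AG library 3. With the surface epithelium level as a covariate, the claudins and occludin list had 0 higher and 2 lower DEGs at a median of 0.26. The surface epithelium and keratinocyte list itself had 1 higher DEG in that fit. The covariate is the summed level of that same list, so its own drop was fixed in advance and carries no information. In the retina the same direction was seen for Krt5 (log2 fold change 2.69, SE 0.44), Elf3 (2.78, SE 0.41) and Gp2, a glycoprotein of secretory cells (3.87, SE 0.42, edgeR adjusted p = 0.034). These are single members of their lists, and the directions of the other members in retina were not counted.

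Lens, muscle and blood transcripts also held higher DEGs. Of 15 lens genes, 9 were higher DEGs and 0 lower. Their median log2 fold change was 2.62, and the groups did not overlap in 8. Cryba1 (ENSRNOG00000008700), a beta-crystallin, had 30.2, 3.53 and 11.2 CPM with 8-AG, 1.45, 0.619 and 2.46 CPM in aged tissue and 3.34, 98.1 and 4.27 CPM in young tissue (log2 fold change 3.35, SE 0.97). Cryab, the small heat shock crystallin that muscle and RPE also make, had 810, 166 and 583 CPM against 141, 155 and 139 CPM (1.87, SE 0.60). The lens list summed to 1099, 332 and 941 CPM with 8-AG and 256, 292 and 260 CPM in aged tissue, and young library 2 reached 1137 CPM. All 3 8-AG libraries were above the aged ones, and an untreated young library was above all of them. Without 8-AG library 1 the list had 6 DEGs and a median of 2.29, and across the 6 fits that leave out 1 library it had 3 to 12 DEGs (3 without aged library 1). It had 5 with the surface epithelium level as a covariate and 4 with the striated muscle level.

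Striated muscle genes had 4 higher DEGs of 26, the slow-fibre genes Tnnc1, Tnni1, Tnnt1 and Myh7, with a median of 3.85 that became 0.00 without 8-AG library 1 and 7.95 without aged library 1. These striated muscle DEGs numbered 2 without 8-AG library 1 or aged library 3, 6 without 8-AG library 2 and 1 without aged library 2, and 1 with the surface epithelium level as a covariate. Alas2, the haem synthesis enzyme of red cell precursors, was the only erythroid DEG of 7, at 7.96, 1.86 and 29.4 CPM against 2.42, 1.80 and 1.89 CPM (2.70, SE 0.99). The 2 Hba-a2 entries and Hbb had log2 fold changes of 2.39 to 2.51 and were not DEGs. The erythroid list had 4 DEGs without 8-AG library 1 or 2 and 0 without 8-AG library 3 or any aged library. Haemoglobin copies share sequence, and their separate counts are uncertain. Young libraries held 12.98, 3.02 and 40.4 CPM of Alas2, so 8-AG library 3 and young libraries 1 and 3 were the high ones. Optc, the vitreous and ciliary protein opticin, had 12.8, 2.86 and 131 CPM with 8-AG and 1.74 to 4.49 CPM in aged tissue.

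No gene of the RPE list passed the test in the main fit. Of 23 RPE and visual cycle genes, 0 were DEGs, and the median log2 fold change was 0.27, with 18 positive. The list had 1 higher DEG at a median of 0.12 without 8-AG library 1, and 1 at a median of 1.46 without aged library 3. Its median was 0.60 without 8-AG library 2 and 0.12 without aged library 1. Ttr (transthyretin), Rgr and Rlbp1 had log2 fold changes of 0.78 (SE 0.84), 0.80 (SE 0.91) and 0.27 (SE 1.26). Their values followed Rpe65 within the groups, highest in 8-AG library 1 and aged library 3 and lowest in aged library 2. Rod genes, too, summed highest in 8-AG library 1 and aged library 3 and lowest in aged library 2. With the rod level as a covariate, the RPE and visual cycle list had 3 higher DEGs and 1 lower at a median of 0.745. With the replicate number as a block, that list had 1 higher DEG at a median of 0.798. Of 20 genes for adhesion, phagocytosis and lysosomal breakdown of outer segments, 2 were lower DEGs, a count that was 0 without 8-AG library 1 or 3 or aged library 1 or 2, or with both of the latter summed. It was also 0 with the surface epithelium or striated muscle level as a covariate and 4 with the rod level. Lamp1 (ENSRNOG00000019629), the lysosomal membrane protein, had 79.0, 304 and 182 CPM with 8-AG and 891, 1326 and 211 CPM in aged tissue (−2.097, SE 0.82). Map1lc3a, an autophagosome protein, had 47.2, 82.7 and 57.8 CPM against 150, 220 and 71.4 CPM (−1.22, SE 0.46). Aged library 3 lay among the 8-AG libraries in both genes. Ctsd, the cathepsin that digests opsin, had a log2 fold change of 0.01 (SE 0.44).

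The genes of the drug's own pathway did not pass the test in the main fit. Of 29 purine salvage and breakdown genes, 0 were DEGs and the median log2 fold change was 0.06. The summed level was 1774 to 2022 CPM with 8-AG and 1891 to 2047 CPM in aged tissue. The list had 1 higher DEG with all 9 libraries in 1 fit, with the replicate number as a block or with the rod level as a covariate. It had 1 lower with the surface epithelium level. Pnp (ENSRNOG00000009982), which encodes the enzyme that 8-AG inhibits, had 33.3, 264 and 208 CPM with 8-AG and 219, 273 and 184 CPM in aged tissue (log2 fold change −0.41, SE 0.71). 8-AG library 1 was the low one, and without it the log2 fold change was 0.07. Xdh, xanthine dehydrogenase, had 72.1, 195 and 96.5 CPM against 182, 202 and 109 CPM (−0.42, SE 0.45), and Ada, adenosine deaminase, 6.35, 56.2 and 47.3 CPM against 44.5, 54.0 and 38.98 CPM (−0.32, SE 0.73). Of 19 adenosine receptor and ectonucleotidase genes, 0 were DEGs, with 1 higher without 8-AG library 2 or 3 and 1 lower without aged library 3.

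Of 33 antioxidant and glutathione genes, 1 was higher and 2 were lower. The lower DEGs were 0 without 8-AG library 1 or 3 or aged library 1 or 2, and the higher ones were 4 without 8-AG library 2 and 0 without 8-AG library 3 or aged library 2 or 3. With the surface epithelium level as a covariate 0 were higher and 1 lower, and with the striated muscle level 0 of either. Aldh3a1, the aldehyde dehydrogenase abundant in cornea, had 67.2, 55.1 and 76.2 CPM with 8-AG and 50.6, 30.4 and 27.1 CPM in aged tissue (0.90, SE 0.30). Gclc (ENSRNOG00000006302), which carries out the first step of glutathione synthesis, had 8.59, 15.9 and 12.4 CPM against 35.5, 31.5 and 16.3 CPM (−1.16, SE 0.39). Gsr, glutathione reductase, had 8.62, 15.7 and 11.6 CPM against 29.7, 30.0 and 14.7 CPM (−1.04, SE 0.38). Gclc and Gsr again had aged library 3 near the 8-AG level, and young library 1 (41.6 and 25.7 CPM) near that of aged libraries 1 and 2.

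Nuclear-encoded oxidative phosphorylation genes and ribosomal protein genes had 0 DEGs, with fitted values mostly of 1 sign in each list. Of 32 oxidative phosphorylation genes, 31 had positive log2 fold changes (median 0.65), and the median was −0.01 without 8-AG library 1. With the rod level as a covariate 3 of them were higher DEGs. Of 36 ribosomal protein genes, 36 had negative ones (median −0.23), and the median was 0.02 without that library. Lists for glucose handling (25 tested), lipid synthesis (28), collagens (29) and matrix proteases (24) held 0 DEGs in the main fit. So did angiogenesis (24), cell cycle (23) and glucocorticoid-responsive genes (16). Glucose handling had 4 higher with DESeq2 and 2 higher with the rod level as a covariate. Lipid synthesis had 2 higher with the replicate number as a block. Calls with covariates are not given here for the rest of these lists. When 8-AG library 1 was left out, angiogenesis had 2 higher and 3 lower DEGs, collagens 3 higher, glucocorticoid-responsive genes 2 higher and matrix proteases 1 higher. Without 8-AG library 2, glucose handling had 4 higher, lipid synthesis 3 higher and glucocorticoid-responsive genes 2 lower. Without aged library 3, matrix proteases had 2 higher, glucocorticoid-responsive genes 2 lower, glucose handling and angiogenesis 1 lower each and lipid synthesis 1 higher. Single DEGs elsewhere included Arc, Galnt12, Hspb8, Mal and Plin4 (higher) and the chromatin remodeller Smarca5 (lower). Slc26a4, an anion exchanger, had 19.3, 1.61 and 355 CPM with 8-AG and 1.21 to 4.59 CPM in aged tissue, and Aqp3, a water and glycerol channel of surface epithelia, had 204, 0.0278 and 6.50 CPM against 0.226 to 0.574 CPM. In both transporters 2 of the 3 8-AG libraries were above every aged library, 1 of them far above the other.

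Genes that the study names for ageing of RPE/choroid mostly did not pass the test. These lists were chosen on the aged libraries used here, so they are not independent of them. Of 19 tested genes named as higher in aged tissue, 1 was a lower DEG with 8-AG (Ubd) and 0 were higher, and 2 were lower without 8-AG library 1 or aged library 1 and 3 without 8-AG library 3. Gfap, the filament of reactive glia, had 162, 12.3 and 21.3 CPM with 8-AG, 56.7, 58.3 and 334 CPM in aged tissue and 3.83 to 10.3 CPM in young tissue (log2 fold change −1.15, SE 1.24). C3 and C4b, complement components, had 34.5, 23.1 and 27.9 CPM against 23.7, 28.5 and 55.9 CPM (−0.31, SE 0.39), and 48.2, 74.97 and 149 CPM against 85.7, 94.3 and 72.3 CPM (0.12, SE 0.42). Both stayed above the young range, which was 12.7 to 15.4 CPM for C3 and 38.7 to 43.4 CPM for C4b, in every 8-AG and aged library. Of 22 tested entries named as lower in aged tissue, 1 was a higher DEG (Alas2), and 8 were higher and 1 lower without 8-AG library 1. There were 4 higher without 8-AG library 2 and 0 without 8-AG library 3 or any aged library. The 8 without 8-AG library 1 included Angpt2, Dusp1, Mecom and Pxdn, with log2 fold changes in that fit of 0.93, 0.99, 0.96 and 0.95. Pxdn, a peroxidasin of basement membranes, had 7.75, 43.8 and 59.2 CPM with 8-AG and 27.9, 30.5 and 21.6 CPM in aged tissue.

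**Figure D5:**
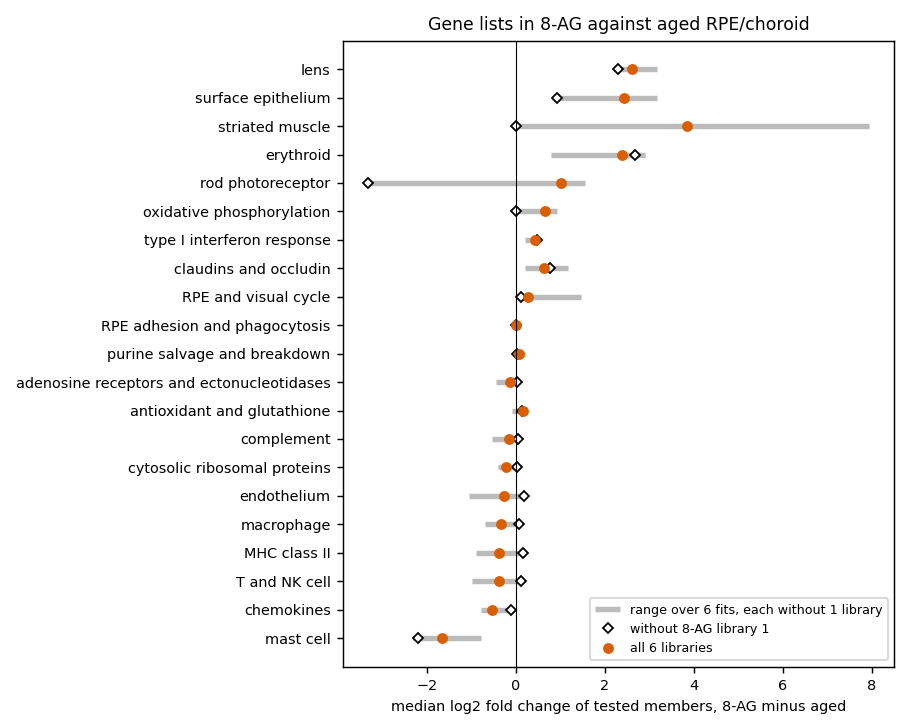
Median log2 fold change of 21 gene lists for 8-AG against aged RPE/choroid, with all libraries, without 8-AG library 1, and as the range over the 6 fits that leave out 1 library. The striated muscle median moves from 3.85 to 0.00 and the oxidative phosphorylation median from 0.65 to −0.01 without 8-AG library 1, while the lens and interferon medians stay above 0.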

How the data were processed

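RPE/choroid was profiled by RNA-seq after low-yield RNA extraction with poly(A) selection. The deposited RPE/choroid values are raw counts per gene made by the authors. How reads were counted is not given for this tissue in the sources used here. The submitters' processing notes name Bowtie2 2.1.0, RSEM 1.2.15, edgeR and the build Rnor_6.0. The retina values are expected counts that the authors made with RSEM (11.5% of values were not whole numbers), rounded here before testing. Columns of the authors' own fold changes and P values were not used, and 6 sample columns were left out (aged columns repeated in another table, and young retina).

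Samples were grouped by their labels. The fit used edgeR 4.0.16 in R 4.3.3 (filterByExpr, TMM, robust quasi-likelihood F-test) on the 6 libraries, with Benjamini-Hochberg adjustment over all genes tested. SE is the log2 fold change divided by the root of F. The same fit was used for aged against young and for retina. CPM were scaled by TMM over the 9 RPE/choroid libraries. The gene lists were counted and given no set test. Named genes were the 15 smallest P per direction among named, non-overlapping DEGs whose mean log2 CPM was 1 or more, the genes the study names, and of each list its DEGs and 3 most abundant members. Members and lists were chosen with earlier results of these data known. Intervals and P values cover the libraries at hand, and without strand information overlapping and antisense genes cannot be told apart. In simulated counts for this comparison (15899 genes), 28.4% of genes changed 2-fold, 71.6% changed 4-fold and 93.9% changed 8-fold were recovered by the DEG rule. The rule also called 664 unchanged genes, while the real comparison had 269 DEGs in all. Each gene was drawn independently, without the shared shift of 8-AG library 1 across genes. The simulation thus differs from the data, and its rates need not hold for this comparison. Alternatives tried were DESeq2 1.42.0, other size factors, other filters, all 9 libraries in 1 fit, the replicate number as a block, aged libraries 1 and 2 summed, marker levels as covariates, and leaving out each library. Some items of the lists are counted in them but are not reported here by name.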

Additional observations from a re-analysis of the deposited data

Results flagged for a closer look

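The effect of 8-AG had opposite directions in the tissues for 2 of the named genes, in each case with every 8-AG library on one side of every aged library in RPE/choroid and on the other side in retina. Cited2 had a log2 fold change of −1.90 in RPE/choroid and 0.24 in retina. In RPE/choroid, aged library 3 (15.6 CPM) lay close to the 8-AG libraries (10.9 to 14.5 CPM) and far below aged libraries 1 and 2 (58.3 and 76.0 CPM). The untreated young libraries were split as well, at 48.1, 18.9 and 16.4 CPM. Mx2 had a log2 fold change of 0.81 in RPE/choroid and −0.81 in retina. The difference between the tissues was not tested for either gene.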

How the results depend on the processing

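The counts of DEGs depended strongly on the settings. The 201 higher and 68 lower DEGs became 578 and 177 with DESeq2, which called 81 genes at an adjusted p under 0.05 where every other fit called 0. They became 378 and 125 without a filter, 354 and 111 with all 9 libraries in 1 fit, 63 and 22 with aged libraries 1 and 2 summed, and 426 and 698 with the rod level as a covariate. They became 145 and 960 with the surface epithelium level as a covariate, and 156 and 113 with the striated muscle level, with 37 and 91 of the 269 shared. Leaving out each library in turn gave 68 to 578 higher and 18 to 286 lower DEGs. Without 8-AG library 1 there were 268 and 286, of which 119 were among the original 269. Without aged libraries 1, 2 or 3 the shared DEGs were 53, 56 and 93 of 269. Other size factors and the non-robust fit shared 266 and 269. Of 84 named DEGs, 52, 78 and 51 remained DEGs without 8-AG libraries 1, 2 and 3, and 27, 26 and 39 without aged libraries 1, 2 and 3. With aged libraries 1 and 2 summed 31 remained, and with the surface epithelium covariate 18. None of the 84 changed direction in a fit that left out 1 library. They were chosen as DEGs on these same libraries, so a change of direction was unlikely from the start. The surface epithelium covariate turned 3, namely Aqp3 (log2 fold change −0.26), Dsg3 (−0.042) and Gp2 (−1.94). Dsg3 and other named DEGs are members of the list behind that covariate, so their weakening in that fit was fixed in advance. The cause of these changes was not tested.

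Libraries with the same number in the labels' order did not all vary together (correlations of their deviations 0.458, 0.712 and −0.218). Deviations from a mean of 3 libraries cannot show whether the numbers pair them, and the main fit used no pairing. With the replicate number as a block there were 227 higher and 79 lower DEGs, and 100 of the 269 were shared. The common dispersion was 0.396 with 3 libraries a group. Changes of 2-fold were mostly not recovered in the simulated counts, which lacked the shared shifts between whole libraries.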
